A study of Arabidopsis thaliana with 6 samples.

Results

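The genes described here are 51 nuclear genes of *Arabidopsis thaliana* whose proteins build the photosynthetic electron transport chain of the thylakoid membrane, out of 32833 genes listed in the expression files. They were taken from a list of gene identifiers made by function, with earlier results of these data known. The list holds 12 genes of photosystem I, 6 of its antenna LHCI, 14 of the antenna LHCII, 10 of photosystem II, 7 of electron carriers and 2 of the chloroplast ATP synthase. All 51 identifiers were found in the reference annotation, and 50 genes passed the filter on low values, the exception being *LHCB1.5*.

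RNA-seq of anthers compared the wild type Col-0 with *ice1-2*, a line in the Col-0 background with a T-DNA in the third exon of *ICE1*, which encodes a basic helix-loop-helix transcription factor, to find genes regulated by ICE1 in anthers. Each genotype had 3 libraries, A, B and C, from plants kept at 22 °C under a long day of 16 h with light and 8 h without. Throughout, values of 3 libraries are in the order A, B, C, and the mutant is *ice1-2*. The labels give anther stage 9 to 13, whereas the study's methods give the same numbers as flower stages. Nothing in the sources used here tells whether the libraries were made from separate plants, and p-values therefore measure the spread between these libraries alone. Levels are FPKM, the fragments of a gene scaled to its transcript length and to the size of the library. *ICE1* itself had 12.7, 9.25 and 14.0 FPKM in Col-0 against 12.9, 15.4 and 21.5 in the mutant (log2 fold change 0.44, limma BH-adjusted p = 0.323). The value covers the whole gene and not the part beyond the insertion, so it speaks neither for nor against the labels, and the mutant samples are called here the libraries labelled *ice1-2*. *FAMA*, which encodes a guard cell factor that pairs with ICE1, had 0.907, 0.909 and 1.3 FPKM in Col-0 against 0, 0.265 and 0.114 in the mutant, lower in every mutant library, and fell under the filter on low values.

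In the chloroplast, photosystem II takes electrons from water and passes them through the cytochrome b6f complex and plastocyanin to photosystem I, which reduces ferredoxin and, through ferredoxin-NADP reductase, NADP. The antenna proteins LHCI and LHCII bind chlorophyll and carotenoids and feed light energy to the photosystems. Green tissue expresses the nuclear genes of these complexes strongly, and in anthers the wall and the connective hold chloroplasts while pollen does not photosynthesize.

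The photosynthetic genes all leaned upwards in the mutant libraries. All 50 tested genes had a log2 fold change above 0, as had 65.2% of all 18858 tested genes. The values ran from 0.60 for *LHCB4.1* to 2.09 for *LHCB1.2*, with a median of 1.19, whereas the median of all tested genes was 0.15. After median-ratio scaling, which sets the median of all genes near 0, the median of the photosynthetic genes was 1.03. Calling a gene took a Benjamini-Hochberg (BH) adjusted p under 0.05 in limma, over all tested genes, together with a log2 fold change beyond 1. By this rule 19 photosynthetic genes were called higher, 0 lower and 31 did not pass, while 1.54% of all tested genes were called higher and 0.233% lower. In 41 of the 51 genes, every library labelled *ice1-2* lay above every Col-0 library, as it did for 19.8% of all tested genes, and in 0 every mutant library lay below, against 7.39%. Dropping the fold limit gave the same counts of 19 and 0, against 1.62% and 0.270% of all tested genes. None of the 51 genes was called lower in any alternative, and the number at an unadjusted p under 0.05 in limma was 48, all of them higher. Of all 18858 tested genes, 4043 had an unadjusted p under 0.05 in either direction.

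The count of 19 depended on the libraries and settings of the fit, as did the share of all tested genes called. Leaving out the A library of Col-0 or of the mutant gave 18 and 17, where 2.95% and 1.34% of all tested genes were called higher. Leaving out Col-0 B or C gave 1 and 1, beside 0.0857% and 0.118%, and leaving out *ice1-2* B or C gave 3 and 1, beside 0.103% and 0.0597%. With median-ratio scaling 14 were called, beside 0.759%. With no filter on low FPKM, 1 was called, of 28 genes called in all. *FNR2* was the only one called in every one of these fits. The median log2 fold change moved less, from 0.97 without *ice1-2* C to 1.34 without *ice1-2* A.

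As a group, the 51 genes held 0.623%, 0.6% and 0.698% of the FPKM sum of all genes in Col-0, against 1.06%, 1.18% and 1.88% in the mutant. Every mutant library was thus above every Col-0 library, and *ice1-2* C stood highest. The ratio of the genotype means was 2.15, and 1.75 without *ice1-2* C. Summed FPKM by function gave much the same ratio in each group, 2.27 for photosystem I, 2.08 for LHCI, 2.3 for LHCII, 2.19 for photosystem II, 2.15 for the carriers and 2.06 for the ATP synthase. In bulk RNA of a whole anther, a different number of green cells and a different amount of RNA per green cell cannot be told apart.

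**Figure D1:**
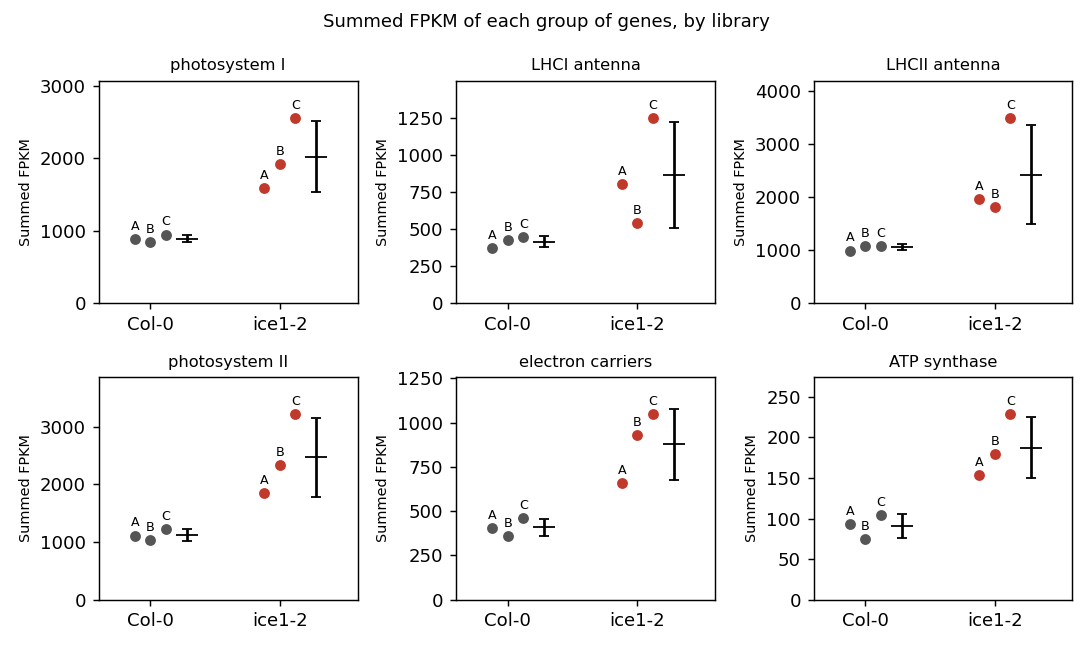
Summed FPKM (y axis, from 0) of each functional group in each library (points A, B and C), with the genotype mean and SD beside the points. Every group was higher in all libraries labelled *ice1-2*, and the LHCI sum of *ice1-2* B, 539, was in ratio the closest to Col-0, whose highest library had 447.

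Several features of the libraries differed as well. The rough depth, read from the steps between low FPKM values, was 22.4 to 26.9 M fragments in Col-0 and 5.89, 19.5 and 14.1 M in the mutant (M is the mega prefix), and the ribosomal RNA share of the FPKM sum was 0.510% to 4.81% in Col-0 and 12.3%, 2.08% and 3.40% in the mutant. The summed FPKM of 7 pollen markers was 10840 to 13600 in Col-0 and 8400, 10920 and 6480 in the mutant, with 0 of the 7 called and a median log2 fold change of -0.43. Of these 7, *VGD1* and *ACA9* lay lower in every mutant library than in every Col-0 library, and 5 overlapped. Their log2 fold changes were -0.60 for *VGD1* and -0.82 for *ACA9* (limma BH-adjusted p = 0.345 and 0.0647). The summed FPKM of 3 sepal and petal markers was 0.875 to 2.42 in Col-0 and 2.38 to 4.08 in the mutant libraries. *AP1*, most of the sum in the mutant, had 1.72, 0.804 and 0.371 FPKM in Col-0 against 2.73, 3.62 and 2.01 (log2 fold change 1.24, limma BH-adjusted p = 0.107). *PTL* overlapped between genotypes, and the petal marker *RBE* was at 0 in 3 libraries. The sum of 5 carpel and ovule markers was 1.57 to 4.57 in Col-0 and 5.41 to 10.1 in the mutant libraries. Of these 5, *CRC*, a carpel gene, was called higher (log2 fold change 1.81, limma BH-adjusted p = 0.0326), and the other 4 overlapped between genotypes. Endothecium wall markers, 0 of 6 called, summed to 103 to 167 in Col-0 and 124 to 265 in the mutant libraries. Tapetum markers, 0 of 5 tested called, summed to 24.5 to 157 in Col-0 and 36.3 to 113 in the mutant libraries. Guard cell markers summed to 40.0 to 60.1 and 22.7 to 34.7, and *TGG1*, most of that sum in Col-0, was called lower. Of the 6, 3 lay lower in every mutant library than in every Col-0 library, and 3 overlapped. The overlapping markers *KAT1*, *MYB60* and *GORK* had log2 fold changes of 1.31, -0.04 and -0.08. The part of these differences in the level of the photosynthetic genes was not tested.

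**Figure D2:**
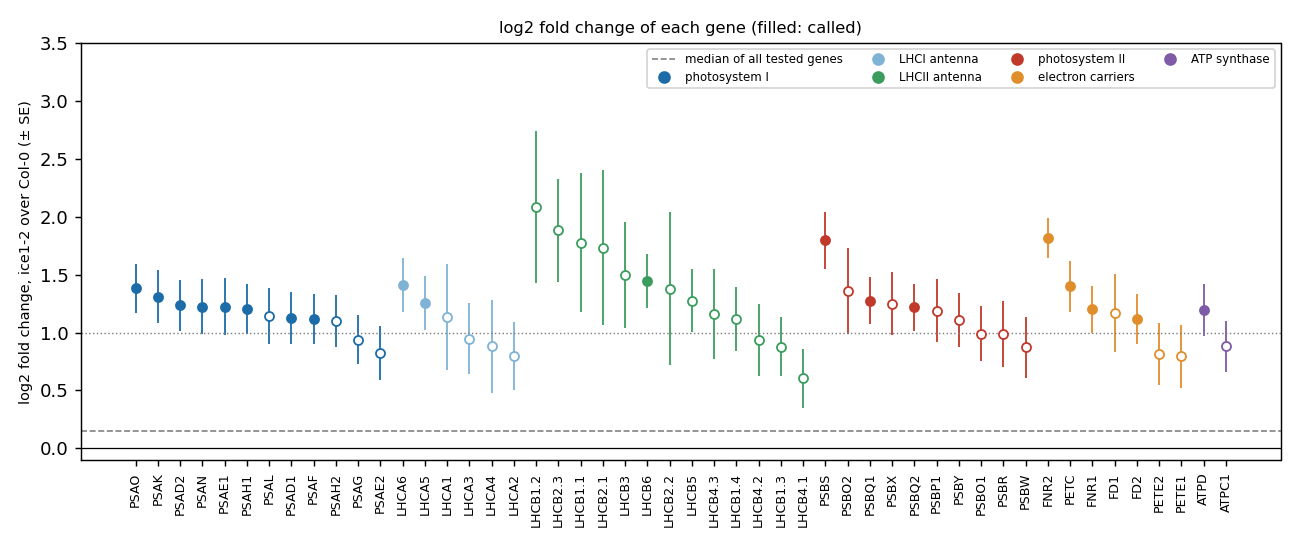
The log2 fold change of each of the 50 tested genes (y axis, libraries labelled *ice1-2* over Col-0 on the log2(FPKM + 0.5) scale), ordered within its group, with the standard error as a bar. Filled points are the 19 called genes, the dotted line is a log2 fold change of 1 and the dashed line the median of all tested genes, 0.15, below every point.

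The 12 genes of photosystem I were the most uniform large group. In all of them the libraries of the genotypes lay apart, 8 were called higher, and the log2 fold changes ran from 0.83 to 1.38 with a median of 1.18. *PSAO* (AT1G08380), a small subunit near the docking site of LHCII, had the largest change, with 90.2, 85.8 and 82.3 in Col-0 and 188, 212 and 287 in the mutant (log2 fold change 1.38 with a standard error of 0.21, limma BH-adjusted p = 0.0311). *PSAK* (AT1G30380), on the LHCI side of the complex, had 97.1, 92.0 and 99.0 against 185, 233 and 317 FPKM (log2 fold change 1.31, limma BH-adjusted p = 0.0389). In both genes the Col-0 libraries lay close together while those labelled *ice1-2* spread more widely, *ice1-2* C being highest.

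*PSAF* (AT1G31330) and *PSAN* (AT5G64040) encode subunits at the lumenal side, where plastocyanin docks. The FPKM of *PSAF* was 93.2, 86.4 and 104 in Col-0 and 167, 199 and 258 in the mutant, and that of *PSAN* was 49.0, 47.9 and 57.5 against 104, 99.9 and 169. Both were called (log2 fold changes 1.12 and 1.23, limma BH-adjusted p = 0.0468 and 0.0467), close to the threshold. *PSAL* (AT4G12800), which takes part in binding LHCII, had the highest mean over all 6 libraries in the group, although *PSAG* was higher in Col-0 and *PSAK* in the mutant. Its values were 109, 103 and 106 against 183, 217 and 328 FPKM, and it just missed the threshold (log2 fold change 1.15, limma BH-adjusted p = 0.0516). *PSAG*, with a log2 fold change of 0.94, did not pass (limma BH-adjusted p = 0.0605), and 61.4% of its length overlaps a gene on the opposite strand.

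At the stromal side, where ferredoxin docks, PSAD and PSAE are each encoded by a pair of genes. *PSAD1* (AT4G02770) had 69.4, 88.9 and 95.4 in Col-0 and 155, 173 and 229 in the mutant, and *PSAD2* (AT1G03130) had 27.8, 36.3 and 41.4 against 72.6, 75.4 and 102. Both were called (log2 fold changes 1.12 and 1.24, limma BH-adjusted p = 0.0485 and 0.039), and *PSAD1* kept the larger part of the pair in every library, 69.7% to 71.4% in Col-0 and 68.1% to 69.7% in the mutant libraries. These shares lay apart by a narrow gap, 69.73% in Col-0 C against 69.69% in *ice1-2* B. The PSAE pair was less even. *PSAE1* (AT4G28750) had 72.8, 58.1 and 71.2 FPKM in Col-0 and 113, 173 and 199 in the mutant, and was called (log2 fold change 1.22, limma BH-adjusted p = 0.0485). *PSAE2* (AT2G20260) had 75.8, 65.8 and 84.9 against 98.8, 149 and 161, and was not called (log2 fold change 0.83, the lowest of photosystem I, limma BH-adjusted p = 0.0995). As a result *PSAE2* was the higher copy in each Col-0 library and *PSAE1* in each mutant library. The share of *PSAE1* was 49.0%, 46.9% and 45.6% in Col-0 and 53.4%, 53.6% and 55.1% in the mutant. The coding sequences of the pair are 77.3% identical and share no 100-base window, but 34.1% of *PSAE1* overlaps genes on the opposite strand, and the sources used here do not say whether counting used the strand.

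PSAH, which also lies near LHCII, again has a pair of genes. *PSAH1* (AT3G16140) had 34.6, 31.5 and 37.1 FPKM in Col-0 against 60.9, 84.6 and 98.5 in the mutant and was called (log2 fold change 1.21, limma BH-adjusted p = 0.039), with 49.0% of its length overlapping a gene on the opposite strand. *PSAH2* (AT1G52230) had 46.2, 41.7 and 43.7 against 75.6, 86.0 and 129 and missed the threshold narrowly (log2 fold change 1.1, limma BH-adjusted p = 0.0505). The share of *PSAH1*, 42.8% to 45.9% in Col-0 and 43.3% to 49.6% in the mutant libraries, overlapped between genotypes.

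**Figure D3:**
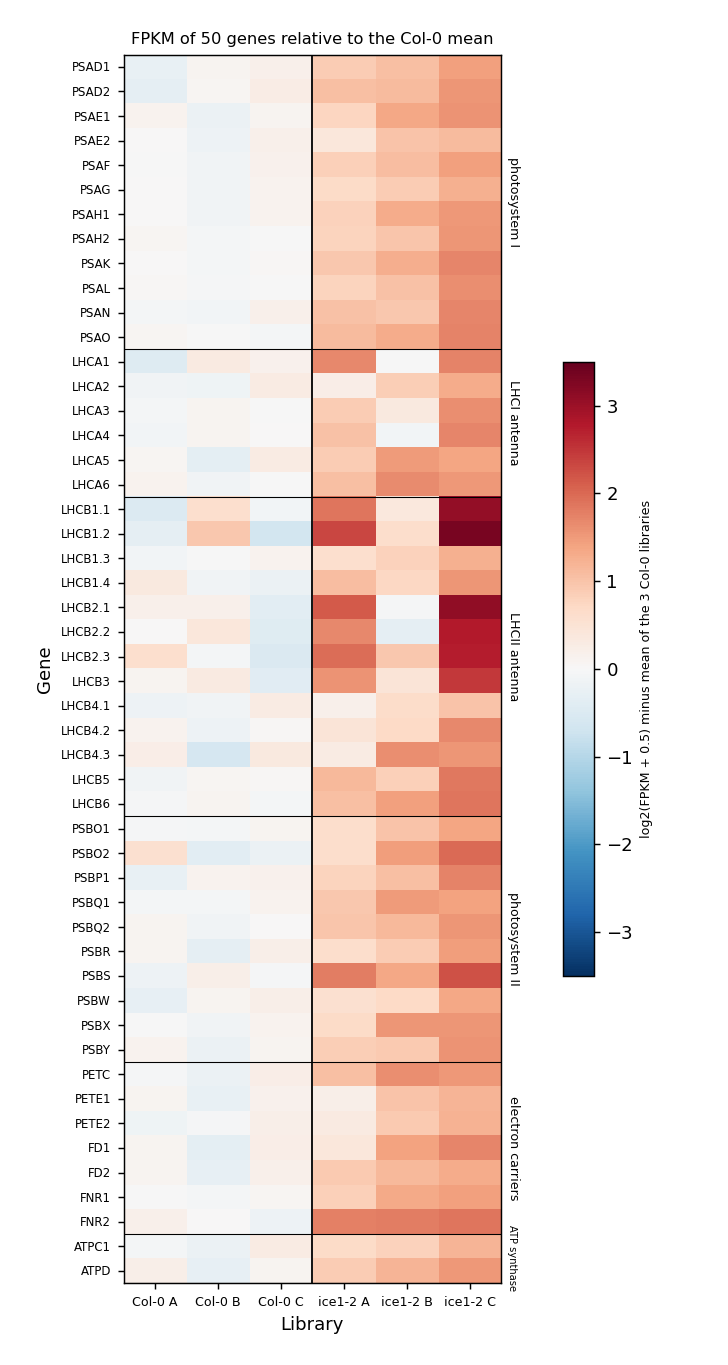
Each row is 1 of the 50 tested genes and each column a library. Colour gives log2(FPKM + 0.5) minus the mean of the 3 Col-0 libraries, red above and blue below. Every gene was above that mean in *ice1-2* A and *ice1-2* C, while in *ice1-2* B antenna genes such as *LHCA1*, *LHCA4*, *LHCB2.1* and *LHCB2.2* stayed near it or below.

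Among the 6 genes of LHCI, the antenna of photosystem I, 2 were called and 3 had genotypes that did not overlap, with a median log2 fold change of 1.04. *LHCA5* (AT1G45474) and *LHCA6* (AT1G19150), which in *Arabidopsis* help link photosystem I to the NDH complex, were the called pair. *LHCA5* had 10.3, 7.64 and 12.1 FPKM in Col-0 and 18.7, 28.5 and 26.6 in the mutant (log2 fold change 1.26, limma BH-adjusted p = 0.0428). *LHCA6* had 1.5, 1.19 and 1.3 against 3.25, 5.30 and 4.75, the lowest Col-0 mean of all 51 genes (log2 fold change 1.41, limma BH-adjusted p = 0.035). In both genes *ice1-2* B was the highest library.

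The 4 abundant genes *LHCA1* to *LHCA4* did not pass. *LHCA1* (AT3G54890) had 49.8, 84.2 and 75.3 FPKM in Col-0 and 219, 67.4 and 230 in the mutant (log2 fold change 1.14 with a standard error of 0.46, limma BH-adjusted p = 0.198). *LHCA4* (AT3G47470), the most abundant of LHCI, had 131, 150 and 143 against 287, 132 and 464 (log2 fold change 0.88 with a standard error of 0.40, limma BH-adjusted p = 0.253). In both, *ice1-2* B sat inside the Col-0 range while *ice1-2* A and C were far above it. *LHCA3* (AT1G61520) leaned the same way, with 73.0, 83.1 and 76.0 against 144, 97.2 and 238, although its genotypes did not overlap (log2 fold change 0.95, limma BH-adjusted p = 0.13). *LHCA2* (AT3G61470) had 105, 102 and 140 against 135, 208 and 284, and there it was *ice1-2* A that overlapped with Col-0 (log2 fold change 0.80, limma BH-adjusted p = 0.166).

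LHCII, the antenna of photosystem II, held both the largest and the smallest changes and the widest spread between libraries. Of its 14 genes, 13 were tested, 1 was called, and 7 had genotypes that did not overlap, with a median log2 fold change of 1.38. *LHCB6* (AT1G15820), a minor antenna protein that links the trimers to the core, was the called gene, with 70.8, 77.7 and 68.7 FPKM in Col-0 and 150, 197 and 264 in the mutant (log2 fold change 1.45 with a standard error of 0.24, limma BH-adjusted p = 0.0338). Its 3 Col-0 libraries were close together and far below the mutant libraries, and 32.5% of its length overlaps genes on the opposite strand. *LHCB5* (AT4G10340), another minor antenna protein, had 95.8, 109 and 107 against 230, 186 and 375 and just missed the threshold (log2 fold change 1.28, limma BH-adjusted p = 0.0516).

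The LHCB1 proteins form the bulk of the LHCII trimers, and the FPKM of the family lay almost wholly in *LHCB1.3* (AT1G29930). This gene had the highest level of all 51 genes in both genotypes, 468, 498 and 544 FPKM in Col-0 and 756, 883 and 1181 in the mutant, and its change was among the smaller ones (log2 fold change 0.88, limma BH-adjusted p = 0.105). Its neighbours on chromosome 1 changed more but less evenly. *LHCB1.1* (AT1G29920) had 19.9, 42.6 and 26.0 FPKM in Col-0 against 104, 36.5 and 242 in the mutant (log2 fold change 1.78 with a standard error of 0.60, limma BH-adjusted p = 0.142). *LHCB1.2* (AT1G29910) had 12.4, 30.3 and 9.82 against 80.5, 23.8 and 159, the largest log2 fold change of all 50 genes, 2.09, with a standard error of 0.65 (limma BH-adjusted p = 0.122). In both genes *ice1-2* B fell below Col-0 B, so the genotypes overlapped and neither passed.

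The 3 neighbouring genes have coding sequences of 804 bases, and their near identity bears on how reads could be assigned among them. *LHCB1.1* differs from *LHCB1.3* at 31 of these bases and *LHCB1.2* at 29. Their first 90 coding bases, the stretch of this length with the most differences, are given with the bases that differ from *LHCB1.3* in capitals, from the coding strand of TAIR10.1 at chr1:10475803-10475892 (minus strand), chr1:10473157-10473246 (minus strand) and chr1:10478071-10478160 (plus strand).
LHCB1.1: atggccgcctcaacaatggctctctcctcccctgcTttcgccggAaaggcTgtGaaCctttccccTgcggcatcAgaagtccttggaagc
LHCB1.2: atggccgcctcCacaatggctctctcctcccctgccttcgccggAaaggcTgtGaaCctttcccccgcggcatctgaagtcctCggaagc
LHCB1.3: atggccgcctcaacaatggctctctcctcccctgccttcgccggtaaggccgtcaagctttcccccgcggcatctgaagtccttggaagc
Over the whole transcripts, 4.44% of the 100-base windows of *LHCB1.1*, 1.51% of those of *LHCB1.2* and 3.27% of those of *LHCB1.3* occur unchanged in another of the 51 genes, so part of their reads could not be placed with certainty. The share of *LHCB1.3* in the family was 93.2%, 86.3% and 93.6% in Col-0 and 80.1%, 93.3% and 73.8% in the mutant. It was thus lowest in *ice1-2* C and A, while *ice1-2* B was inside the Col-0 range.

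On chromosome 2 the family has a further pair. *LHCB1.4* (AT2G34430) had 1.93, 1.27 and 1.18 FPKM in Col-0 and 3.55, 2.69 and 5.16 in the mutant, with no overlap (log2 fold change 1.11, limma BH-adjusted p = 0.0744). *LHCB1.5* (AT2G34420) failed the filter, since it was listed at 0 in Col-0 A and C and in *ice1-2* A and B and at 4.98 in Col-0 B and 13.5 in *ice1-2* C. It is the only 1 of the 51 genes listed at 0 in any library, and its whole length overlaps genes on the opposite strand. An FPKM of 0 in these files can be a failed estimate and does not show that the transcript was absent.

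LHCB2 is the other main trimer protein, whose phosphorylation moves LHCII towards photosystem I. *LHCB2.1* (AT2G05100) had 27.5, 27.8 and 18.8 FPKM in Col-0 and 110, 23.6 and 212 in the mutant. *LHCB2.2* (AT2G05070) had 30.3, 39.5 and 22.2 against 97.0, 23.9 and 206. In both, *ice1-2* C exceeded *ice1-2* B, 8.97 times in *LHCB2.1* and 8.63 times in *LHCB2.2*, and *ice1-2* B lay within the Col-0 range. Their log2 fold changes, 1.74 and 1.38, had standard errors of 0.67 and 0.66 and did not pass (limma BH-adjusted p = 0.182 and 0.269). Without *ice1-2* B, *LHCB2.1* was called, with a log2 fold change of 2.62 (limma BH-adjusted p = 0.0347). Without *ice1-2* C its log2 fold change was 1.05 (limma BH-adjusted p = 0.405). With library quality weights it was 0.80 (limma BH-adjusted p = 0.475). Those weights were 0.555, 2.62 and 0.634 for the mutant libraries, so *ice1-2* B counted most. *LHCB2.1* and *LHCB2.2* share 7.43% and 7.28% of their 100-base windows with each other or with another of the 51 genes. *LHCB2.3* (AT3G27690), a copy on chromosome 3, had 8.07, 4.94 and 3.56 against 21.9, 10.6 and 38.1, and the genotypes lay apart (log2 fold change 1.89, limma BH-adjusted p = 0.0664). Of its length, 37.6% overlaps a gene on the opposite strand. *LHCB3* (AT5G54270), the third trimer protein, had 57.7, 66.4 and 40.2 against 162, 73.1 and 299 (log2 fold change 1.5, limma BH-adjusted p = 0.116).

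LHCB4 is a minor antenna protein with a family of genes. *LHCB4.1* (AT5G01530), its main gene, had 123, 127 and 168 FPKM in Col-0 and 157, 214 and 274 in the mutant (log2 fold change 0.60, the lowest of the 50 genes, limma BH-adjusted p = 0.219). *LHCB4.2* (AT3G08940) had 53.6, 43.4 and 50.3 against 66.5, 79.5 and 158 (log2 fold change 0.94, limma BH-adjusted p = 0.137). *LHCB4.3* (AT2G40100) had 24.1, 13.3 and 25.8 against 25.1, 63.6 and 60.4 (log2 fold change 1.16, limma BH-adjusted p = 0.14). In *LHCB4.1* and *LHCB4.3* it was *ice1-2* A that overlapped with Col-0, as for *LHCA2*, and *LHCB4.1* held 61.2% to 69.1% of the family in Col-0 and 55.7% to 63.2% in the mutant libraries.

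The antenna genes thus differed among themselves in which mutant library was low. Of the 50 tested genes, 6 were not above all Col-0 libraries in *ice1-2* B, namely *LHCA1*, *LHCA4*, *LHCB1.1*, *LHCB1.2*, *LHCB2.1* and *LHCB2.2*, 3 were not in *ice1-2* A, and 0 in *ice1-2* C. All of these 9 were antenna genes, whereas each of the 31 tested genes of the photosystem cores, carriers and ATP synthase was above every Col-0 library in each mutant library. The ratio of *ice1-2* C to *ice1-2* B was 1.34 in the median of photosystem I, with a range of 1.08 to 1.69, and 2.02 in that of LHCII, with a range of 0.950 to 8.97, and its median over all tested genes above 0 in these libraries was 1.11. The ratio of *ice1-2* A to *ice1-2* B was 0.855 in the median of photosystem I and 1.32 in that of LHCII, and 0.886 over all tested genes. Standard errors followed this spread, from 0.213 to 0.245 on the log2 scale in photosystem I and from 0.235 to 0.668 in LHCII. Whether the antenna genes differed from the other groups was not tested.

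**Figure D4:**
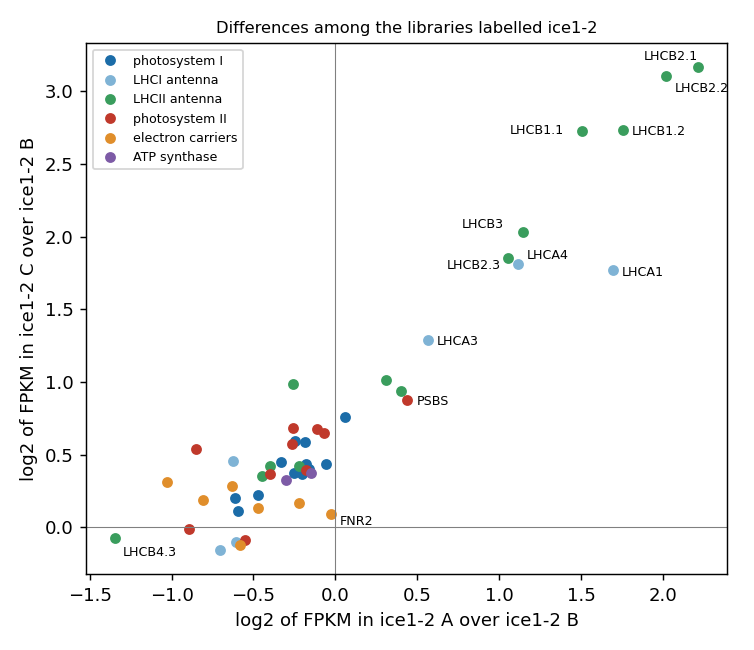
Each point is 1 of the 50 tested genes, placed by the log2 ratio of FPKM in *ice1-2* A over *ice1-2* B (x axis) and in *ice1-2* C over *ice1-2* B (y axis), coloured by group. *LHCB2.1*, *LHCB2.2*, *LHCB1.1* and *LHCB1.2* stand at the upper right, far from the cluster of photosystem genes, and *FNR2* lies near the origin.

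*CCA1* and *LHY*, transcription factors of the circadian clock that peak in the morning, and *TOC1*, a clock component that peaks in the evening, were singled out after their values were seen. The FPKM of *LHY* was 12.3, 6.90 and 12.3 in Col-0 and 16.2, 9.40 and 45.6 in the mutant. That of *CCA1* was 16.1, 9.37 and 14.6 against 17.9, 9.43 and 33.9, and that of *TOC1* 21.0, 26.5 and 41.2 against 13.1, 20.8 and 12. Among the mutant libraries, *LHY* and *CCA1* were thus highest in *ice1-2* C and lowest in *ice1-2* B, the order of *LHCB2.1*, and *TOC1* had the opposite order. The Col-0 libraries did not share this order. There *LHY* and *CCA1* were lowest in Col-0 B, the library in which *LHCB2.1* was highest (27.5, 27.8 and 18.8 FPKM). None of the 3 clock genes passed the test (limma BH-adjusted p = 0.344, 0.569 and 0.129), and the sources used here do not give the hour of harvest. *A9*, a tapetum marker, had 50.2, 0.0682 and 0.0644 FPKM in Col-0 and 1.43, 39.7 and 6.78 in the mutant, so that Col-0 A and *ice1-2* B stood apart from the rest. The part of either difference in the antenna genes was not tested.

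In photosystem II, the 10 nuclear genes all lay apart between genotypes, 3 were called, and the median log2 fold change was 1.2. *PSBS* (AT1G44575), the sensor of lumen acidity that switches on the dissipation of excess light energy, had the largest change of the group. Its FPKM was 25.2, 33.0 and 27.3 in Col-0 and 99.9, 73.6 and 135 in the mutant (log2 fold change 1.80 with a standard error of 0.25, limma BH-adjusted p = 0.025). The lowest mutant library was 2.23 times the highest Col-0 library. *PSBS* lost its call without Col-0 B, Col-0 C or *ice1-2* C and kept it in the other 3 such fits. It also lost the call with no filter and with the replicate block (limma BH-adjusted p = 0.0739 and 0.0545). In all, *PSBS* was called in 8 of 13 alternatives, with a BH-adjusted p of at most 0.0744 over them.

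The oxygen-evolving complex on the lumenal side is shielded by PSBO, PSBP, PSBQ and PSBR. *PSBQ1* (AT4G21280) had 50.4, 49.7 and 57.6 FPKM in Col-0 and 101, 148 and 139 in the mutant, and *PSBQ2* (AT4G05180) had 60.8, 52.2 and 57.7 against 112, 126 and 166. Both copies were called (log2 fold changes 1.28 and 1.22, limma BH-adjusted p = 0.0326 and 0.0354), and neither was clearly the main one, *PSBQ1* holding 45.3% to 49.9% of the pair in Col-0 and 45.6% to 54.0% in the mutant libraries. *PSBO1* (AT5G66570) had 173, 169 and 188 against 269, 355 and 457 (log2 fold change 0.99, limma BH-adjusted p = 0.0709). *PSBO2* (AT3G50820) had 44.5, 23.2 and 26.0 against 46.3, 83.4 and 121 (log2 fold change 1.36, limma BH-adjusted p = 0.0931). In *PSBO2* the gap between genotypes was narrow, 44.5 in Col-0 A against 46.3 in *ice1-2* A, and neither copy passed. *PSBO1* held 79.6% to 87.9% of the PSBO pair in Col-0 and 79.1% to 85.3% in the mutant libraries.

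*PSBR* (AT1G79040), which helps PSBP to bind, was the second most abundant of the 51 genes, with 385, 288 and 415 FPKM in Col-0 and 551, 662 and 987 in the mutant (log2 fold change 0.99, limma BH-adjusted p = 0.105). *PSBP1* (AT1G06680) had 89.6, 118 and 120 against 188, 224 and 360 (log2 fold change 1.19, limma BH-adjusted p = 0.0627). The small membrane subunits did not pass either. *PSBW* (AT2G30570), with 108, 142 and 152 against 198, 214 and 342, had the lowest change of photosystem II (log2 fold change 0.87, limma BH-adjusted p = 0.114), and *PSBX* and *PSBY* had log2 fold changes of 1.25 and 1.11 (limma BH-adjusted p = 0.0549 and 0.0516).

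Among the electron carriers all 7 genes lay apart between genotypes, 4 were called, and the median log2 fold change was 1.17. *FNR2* (AT1G20020, chr1:6942625-6945091 in TAIR10.1) encodes 1 of the leaf isoforms of ferredoxin-NADP reductase, the enzyme that makes NADPH. Its FPKM was 10.1, 8.93 and 7.70 in Col-0 and 31.4, 32.0 and 34.1 in the mutant. The lowest mutant library was 3.11 times the highest Col-0 library, and the mutant libraries differed among themselves by only 1.09 times, the least of the 50 genes. It had the smallest standard error and BH-adjusted p of the 51 genes (log2 fold change 1.82 with a standard error of 0.17, limma BH-adjusted p = 0.00781) and was called in all 13 alternatives, with a BH-adjusted p of 0.00425 to 0.0447.

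*FNR1* (AT5G66190), the other leaf isoform, had 34.2, 32.4 and 36.2 FPKM in Col-0 and 62.0, 86.0 and 94.2 in the mutant, and was called (log2 fold change 1.2, limma BH-adjusted p = 0.0356). The share of *FNR2* in the pair was 22.8%, 21.6% and 17.5% in Col-0 and 33.6%, 27.1% and 26.6% in the mutant, so *FNR1* stayed the main copy and its lead was smaller in each mutant library. The coding sequences of the pair are 73.5% identical and share no 100-base window, and *FNR2* overlaps no gene on the opposite strand.

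**Figure D5:**
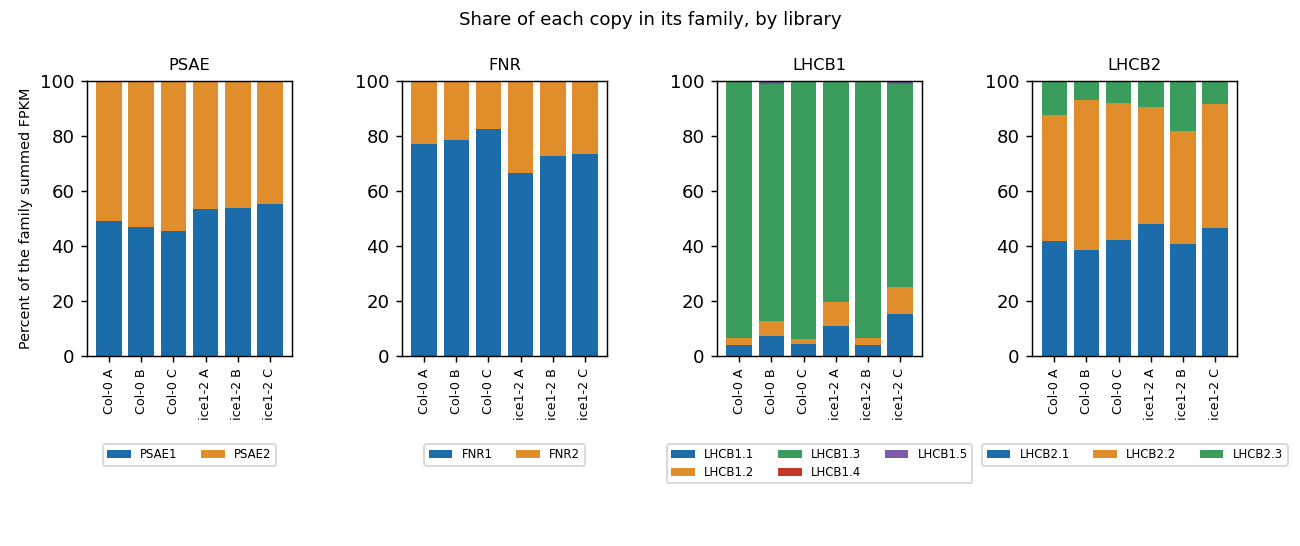
Percent of the summed FPKM of a family (y axis, 0 to 100) held by each copy in each library, for PSAE, FNR, LHCB1 and LHCB2. The mutant libraries lie apart from Col-0 for PSAE and FNR. The share of *LHCB2.2* lies apart too, at 46.0% to 54.7% in Col-0 and 41.2% to 45.2% in the mutant libraries, while the other LHCB2 copies overlap. In LHCB1, *ice1-2* B resembles Col-0 A and C.

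*PETC* (AT4G03280), the Rieske iron-sulfur protein of the cytochrome b6f complex, had 48.4, 42.8 and 58.2 FPKM in Col-0 and 103, 154 and 142 in the mutant and was called (log2 fold change 1.4, limma BH-adjusted p = 0.0322). Of the ferredoxins of leaves, *FD2* (AT1G60950), the main isoform, had 119, 90.7 and 125 against 209, 244 and 273 and was called (log2 fold change 1.12, limma BH-adjusted p = 0.0456). *FD1* (AT1G10960) had 36.7, 27.0 and 39.9 against 44.8, 91.2 and 113 (log2 fold change 1.17, limma BH-adjusted p = 0.103). The genotypes lay apart in each of these, but *FD1* in *ice1-2* A came close to Col-0 C. *FD2* held 75.9% to 77.0% of the pair in Col-0 and 70.7% to 82.4% in the mutant libraries, a wider range on both sides.

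Plastocyanin, the copper protein that carries electrons to photosystem I, changed least among the carriers. *PETE2* (AT1G20340), its main gene, had 133, 142 and 170 FPKM in Col-0 and 182, 282 and 343 in the mutant, and *PETE1* (AT1G76100) had 21.9, 17 and 22.9 against 23.6, 41.3 and 47.1. Neither passed (log2 fold changes 0.81 and 0.80, limma BH-adjusted p = 0.132 and 0.147), and *PETE2* held 85.9% to 89.3% of the pair in Col-0 and 87.2% to 88.6% in the mutant libraries. For the ATP synthase, *ATPD* (AT4G09650), its delta subunit, had 46.2, 32.7 and 43.5 FPKM in Col-0 and 75.1, 92.4 and 115 in the mutant, and was called (log2 fold change 1.19, limma BH-adjusted p = 0.0441). *ATPC1* (AT4G04640), its gamma subunit, had 46.9, 42.6 and 61.0 against 78.6, 87.1 and 113 and did not pass (log2 fold change 0.88, limma BH-adjusted p = 0.0746).

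The 250 bases before each gene start in TAIR10.1 were searched on both strands for 8 short motifs, 2 of them forms of the binding site of CCA1 that were added after values were seen. The G-box CACGTG, a site that basic helix-loop-helix and bZIP factors bind, was found before 9 of the 51 genes (17.6%) and before 6.49% of 27437 protein-coding genes. The wider E-box CANNTG, which includes the G-box, was found before 78.4% and 55.3%, the I-box core GATAAG before 23.5% and 12.3%, and CCAAT before 66.7% and 46.0%. Before the 20 antenna genes the share with CCAAT was 90%, and before the other 31 genes it was 51.6%. The core of the cold-response element, CCGAC, was found before 5.88% of the 51 genes and 12% of all, AATCT before 80.4% and 63.7%, AAAAATCT before 9.80% and 6.69%, and AACAATCT before 1.96% and 1.83%. A match is a description of sequence and not a site of binding.

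The changes of genes with a motif were set beside those without it, as values only. Of the 9 genes with it, 4 were called and the median log2 fold change was 1.19, and of the other 41 tested genes 15 were called with a median of 1.19. For the I-box core, 7 of the 12 genes with it were called and 12 of the other 38, with medians of 1.17 and 1.19, and for AAAAATCT 2 of 5 and 17 of the other 45, with medians of 1.23 and 1.19. Of the 6 genes that were low in *ice1-2* B, 1 had a G-box, 2 the I-box core and 2 AAAAATCT. None of these differences was tested. As examples, 5 genes were picked by their results: the PSBQ pair called together, the PSAE pair whose balance differed, and *FNR2*. The PSAD and FNR pairs were called together too. For the 5 genes, the 120 bases just before the gene start are given 5′ to 3′ on the strand of the gene. The G-box, the I-box core and both forms of the CCA1 site on either strand are in capitals in these stretches. They lie at chr4:11334232-11334351 (plus strand) for *PSBQ1*, chr4:2673244-2673363 (minus strand) for *PSBQ2*, chr4:14204062-14204181 (minus strand) for *PSAE1*, chr2:8736614-8736733 (plus strand) for *PSAE2* and chr1:6942505-6942624 (plus strand) for *FNR2* in TAIR10.1.
PSBQ1: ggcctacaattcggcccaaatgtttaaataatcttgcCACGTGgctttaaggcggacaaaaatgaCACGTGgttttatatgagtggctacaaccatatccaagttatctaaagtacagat
PSBQ2: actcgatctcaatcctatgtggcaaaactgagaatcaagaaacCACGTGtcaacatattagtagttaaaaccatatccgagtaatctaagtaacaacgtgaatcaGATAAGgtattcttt
PSAE1: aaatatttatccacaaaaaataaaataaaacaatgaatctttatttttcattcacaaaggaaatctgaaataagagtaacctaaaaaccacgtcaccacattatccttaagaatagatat
PSAE2: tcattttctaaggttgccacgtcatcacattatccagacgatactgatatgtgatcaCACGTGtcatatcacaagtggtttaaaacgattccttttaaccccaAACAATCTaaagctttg
FNR2: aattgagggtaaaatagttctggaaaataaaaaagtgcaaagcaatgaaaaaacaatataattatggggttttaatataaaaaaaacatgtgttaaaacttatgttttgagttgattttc
Both PSBQ genes have a G-box in this stretch, *PSAE2* has one and *PSAE1* has none, and no such motif lies in the stretch of *FNR2*.

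Other genes of chloroplast function, from lists made by function, were mostly higher in the mutant libraries too, by amounts that differed between lists. Of 12 genes of Rubisco and the enzymes of the stroma, 5 were called higher and 0 lower, with a median log2 fold change of 1.36. *RBCS2B*, a small subunit of Rubisco, had 14.3, 12 and 5.64 FPKM in Col-0 and 64.1, 72.4 and 42.8 in the mutant (log2 fold change 2.5, limma BH-adjusted p = 0.0254). *CA1*, a carbonic anhydrase, had a log2 fold change of 2.17, and *SBPASE* and *GAPB*, enzymes of the Calvin cycle, had 1.65 and 1.65 (limma BH-adjusted p = 0.0377, 0.0149 and 0.0197). The *RBCS* genes are close copies among which reads may have been split. The stromal genes lay apart between genotypes in 11 of 12 cases.

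Chlorophyll synthesis and the assembly of the complexes changed less. Of 14 tested genes of chlorophyll synthesis, 1 was called higher and 0 lower, with a median of 0.75, and the called gene was *DVR*, which encodes divinyl reductase, with 4.77, 4.44 and 3.98 FPKM in Col-0 and 10.1, 14.3 and 13.1 in the mutant (log2 fold change 1.39, limma BH-adjusted p = 0.0254). Of 17 genes for assembly and regulation of the thylakoid complexes, 4 were called higher and 0 lower, with a median of 0.72. They were *ELIP2*, a stress-induced relative of the antenna proteins, *PSB28*, a photosystem II assembly factor, and *CURT1A* and *CURT1B*, which bend the grana margins (log2 fold changes 2.06, 1.63, 1.2 and 1.12, limma BH-adjusted p = 0.0421, 0.0163, 0.0283 and 0.0456). *ELIP2* was low, at 0.145 to 0.744 FPKM in Col-0 and 2.12 to 5.83 in the mutant libraries, and *CURT1A* rose from 39.2 to 50.8 to 98.4 to 106.

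The tested transcription factors of photosynthesis genes did not pass. *GLK1* had 4.72, 4.21 and 7.13 in Col-0 and 4.09, 5.30 and 7.98 in the mutant (log2 fold change 0.09, limma BH-adjusted p = 0.88). *GLK2* had 1.89, 1.15 and 1.72 against 1.98, 1.68 and 2.77 (log2 fold change 0.34, limma BH-adjusted p = 0.479). In both the genotypes overlapped. *HYH* and *HY5*, bZIP factors of light signaling, had log2 fold changes of 1.74 and 0.76 (limma BH-adjusted p = 0.0508 and 0.166). For both, every mutant library lay above every Col-0 library, and *HYH* had 0.388, 0.105 and 0.472 FPKM in Col-0 against 2.63, 1.17 and 3.25. Of 6 tested factors 0 were called. Of the root-type ferredoxin and reductase genes 3 were tested and 0 called, with a median of 0.55, and *RFNR2* and *RFNR1* had the largest log2 fold changes, 0.57 and 0.55 (limma BH-adjusted p = 0.112 and 0.404).

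The chloroplast genome encodes the core subunits of the same complexes. Of 10 plastid genes 9 were tested and 0 called in either direction, with a median log2 fold change of 1.37. Their summed FPKM was 19.1, 76.2 and 31.7 in Col-0 and 274, 60.2 and 75.2 in the mutant, so *ice1-2* A stood far above the rest and the other mutant libraries lay within the Col-0 range. The order of the libraries was thus not that of the nuclear genes, of which *ice1-2* C was the highest library in 44 of 50. *ice1-2* A was also the library with the largest share of ribosomal RNA, 12.3%, and the part of that in the plastid values was not tested.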

How the data were processed

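RNA-seq libraries of anthers, 3 for each of Col-0 and *ice1-2*, were used. According to the methods and the labels, the authors trimmed reads with Trim Galore, mapped them to TAIR10 with TopHat, used StringTie, Cufflinks-CuffMerge and HTSEQ for transcripts and counting, and deposited FPKM values, 1 per gene and library. The sources used here do not give library totals or the use of strand. FPKM values carry no counts, so depth is rough. In each library 21.7% to 46.2% of low values were whole steps to a tolerance of 0.05, for which chance gives 10% if the step is fixed beforehand. Here the step was the commonest of these same low values, so the share cannot check the depth.

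The filter kept genes that reached 1 FPKM in 3 or more libraries, 18858 of 27825 above 0, which were fitted as log2(FPKM + 0.5) with limma 3.58.1 (trend, genotype only) in R 4.3.3, with BH adjustment over all of them. Fold changes on that scale understate those of low genes. The fit was tested on simulated data. Tables and figures used Python 3.11.15, pandas 2.3.3, numpy 2.4.6, matplotlib 3.10.9 and Biopython 1.88. Coordinates and sequences came from RefSeq's TAIR10.1. Identity within families was planned for proteins and was computed on coding sequences instead.

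Members and gene lists were chosen with earlier results of these data known. Values in every library were given for each called gene, for the highest and lowest fold change and the highest level in each function, for paralog families and for genes at 0. From other lists *GLK1*, *GLK2* and up to 4 genes that passed were named, or the 2 with the largest change. Further genes of the 51, *CCA1*, *LHY*, *TOC1*, *A9* and *FAMA* were named after values were seen. Alternatives were pseudocounts of 0.1 and 1, no filter, median-ratio scaling, ribosomal RNA left out, a replicate block, library quality weights and each library left out.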

Additional observations from a re-analysis of the deposited data

How the results depend on the processing

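All 50 tested genes kept a log2 fold change above 0 in every alternative. Fits without a library have fewer samples, and the cause of other changes was not tested. All genes called were 335, and with other settings 28 (no filter), 180 (median-ratio scaling), 803 (quality weights for libraries), 589 (without ribosomal RNA) and 15 to 628 (a library left out). The 19 photosynthetic genes called higher became 1 with no filter, 29 with weights and 1 to 18 with a library left out, and those passing the BH limit at any fold, also 19, became 1, 34 and 1 to 18, and 29 with ribosomal RNA left out. The main fit did not pair the samples by the letters A, B and C. Deviations from the genotype means correlated at -0.21, 0.05 and 0.12 for same-lettered libraries and at -0.29 to 0.22 for differently lettered ones. With 3 libraries per genotype these values cannot tell whether the letters pair the samples. With the replicate block 35 genes, 1 photosynthetic gene called and 1 passing BH remained. The members' median log2 fold change was 0.97 to 1.34 with a library left out, and the ratio of their summed share 1.75 to 2.39.

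Limits are the 3 libraries per genotype, the depth of 5.89 M fragments in *ice1-2* A and FPKM in place of counts, which leaves counting error unknown. Copies of LHCB1 and LHCB2 share sequence, and reads of genes with a partner on the opposite strand cannot be told apart without strand.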

Other observations

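Some chloroplast genes outside the photosystems had values that set single libraries apart. *RBCS1B*, a small subunit gene of Rubisco, had 12.7, 9.03 and 11.5 FPKM in Col-0 (A, B, C) against 32.3, 54.8 and 7.60 in the libraries labelled *ice1-2*, so that *ice1-2* C, the highest library for most photosynthetic genes, was the lowest of all 6 here. *CAO*, which makes chlorophyll b, the pigment held mainly by antenna proteins, had 6.35, 6.31 and 7.93 FPKM in Col-0 against 11.1, 3.84 and 19.0. That order of the mutant libraries, C above A above B, was also that of *LHCB2.1* and *LHCB1.1*. *ELIP1*, an early light-induced protein, had 35.4, 24.1 and 58.8 against 103, 42.7 and 141, again lowest in *ice1-2* B among the mutant libraries. *PORB*, a protochlorophyllide reductase, went the other way, with 48.8, 45.3 and 41.2 against 32.7, 97.7 and 55.1. These genes were named after their values were seen, none passed the test, and no explanation for their order was tested.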
